A study of Rattus norvegicus with 12 samples.

Results

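Collagens are the structural proteins of connective tissue, and the transcripts of 25 collagen chains were measured in rat fat in 3 nutritional states. The chains were taken by name: every probe set (the group of probes that reads 1 transcript) whose single platform gene symbol had the form Col, number, a, number, with the brightest probe set standing for the gene. That rule gave 25 chains on 27 probe sets, out of 14506 named genes and 29215 probe sets in all. The rule itself used no expression difference, but it was chosen with earlier results of these data known. Col6a4 alone had more than 1 probe set, with mean log2 levels of 5.80, 4.56 and 3.98. RefSeq names 44 chains in the rat, and the 19 without a singly named probe set, among them Col4a2, Col6a1, Col6a2, Col6a3, Col15a1 and Col18a1, were not analysed here. By type, 10 of the 25 were fibrillar, 3 belonged to the type IV network of basement membranes, and 12 were of other types.

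The tissue was the fat around the epididymis, taken from 12 male Sprague-Dawley rats with no genetic change named in the labels. Of these, 4 were fed, 4 were fasted until phase 2 of fasting and 4 were fasted until phase 3. By textbook knowledge, phase 2 is the long stage in which stored fat is the main fuel, and phase 3 is the late stage in which fat stores run low and body protein is broken down faster. The labels give neither the age of the rats nor the hours of fasting. Each rat had its own Affymetrix Rat Gene 1.0 ST array, so the p-values below measure the spread between rats.

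Collagen chains wind around each other into long helices. Types I and III build the fibrils that give tissue its strength, and type V chains sit inside those fibrils, where they start fibril assembly and limit fibril width. Type IV forms the sheet-like mesh of basement membranes, and in fat each adipocyte is wrapped in such a membrane and held in a net of fibrils. FACIT collagens, such as types XII and XIV, do not form fibrils themselves but coat them. In adipose tissue, fibroblasts and adipocyte progenitors make most of the fibrillar chains, with a share from the adipocytes.

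Expression values were log2 levels made by the authors with RMA (background correction, quantile normalisation and summary of each probe set), so a difference of 1 is a 2-fold difference and an unspecific signal gives a level above 0. As a yardstick for such signal, the mean levels of 53 olfactory receptor genes had a median of 3.49 and a 95th percentile of 5.658. Of the chains, 23 had a mean level above that percentile, while Col13a1 (5.46) and Col17a1 (5.58) did not. The arrays had medians between 6.026 and 6.1319 over all probe sets. Phase 3 rat 3 stood apart: the SD over all its probe sets was 2.223, against 2.292 to 2.346 on the other arrays, a narrower spread of levels. Chains whose call this array changes are given with and without it. Over all chains, 13 passed in phase 2 against fed without it (9 lower and 4 higher), 13 in phase 3 against fed and 11 in phase 3 against phase 2, where 9, 12 and 10 passed with it. One protocol, that of the RNA extraction, mentions liver where all remaining labels name white fat. All 10 adipocyte markers measured were above the yardstick, against 2 of 8 hepatocyte markers and 0 of 8 epididymis markers.

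Promoter sequences are shown for chains that behaved differently in the results that follow: Col1a2 of type I, Col5a1 and Col5a3 of type V, and Col4a1 beside its relative Col4a3. The RefSeq promoter table of the GRCr8 build, with 250 bases before and 50 after a start set by that table, held 20 of the 25 chains. That start is not always the outer end of the gene. The Col5a1 window lies wholly inside the gene, which begins at base 31606475. The Col5a3 window reaches more than 50 bases into its gene, whose outer end is base 27626002. Col1a1, Col3a1, Col2a1, Col12a1 and Col14a1 had no entry. Capitals mark, on either strand, the letters CCAAT of a CCAAT box, the letters GGGCGG of the GC box bound by Sp1, or the letters TATAAA of a TATA box. Among all 33469 promoters of the table, 37.5% held CCAAT, 33.1% held GGGCGG and 14.2% held TATAAA.
Col1a2 (chr4:33518307-33518606, plus strand): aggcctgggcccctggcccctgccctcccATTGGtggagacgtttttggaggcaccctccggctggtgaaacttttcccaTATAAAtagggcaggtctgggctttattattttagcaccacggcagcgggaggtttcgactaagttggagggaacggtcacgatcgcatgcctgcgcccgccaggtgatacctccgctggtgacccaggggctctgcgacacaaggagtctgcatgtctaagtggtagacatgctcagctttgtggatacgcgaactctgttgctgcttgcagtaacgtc
Col5a1 (chr3:31606630-31606929, plus strand): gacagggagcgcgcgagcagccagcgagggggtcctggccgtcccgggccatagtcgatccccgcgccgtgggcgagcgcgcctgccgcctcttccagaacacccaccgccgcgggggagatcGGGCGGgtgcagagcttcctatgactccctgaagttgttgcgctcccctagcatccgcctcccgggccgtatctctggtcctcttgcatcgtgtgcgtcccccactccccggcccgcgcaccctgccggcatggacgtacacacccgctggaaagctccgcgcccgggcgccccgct
Col5a3 (chr8:27625899-27626198, minus strand): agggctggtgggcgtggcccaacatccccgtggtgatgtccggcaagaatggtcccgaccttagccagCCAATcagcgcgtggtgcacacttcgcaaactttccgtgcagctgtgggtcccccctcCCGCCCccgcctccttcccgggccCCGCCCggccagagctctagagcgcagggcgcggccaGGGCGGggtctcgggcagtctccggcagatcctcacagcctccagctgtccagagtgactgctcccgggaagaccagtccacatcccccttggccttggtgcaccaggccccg
Col4a1 (chr16:84885347-84885646, plus strand): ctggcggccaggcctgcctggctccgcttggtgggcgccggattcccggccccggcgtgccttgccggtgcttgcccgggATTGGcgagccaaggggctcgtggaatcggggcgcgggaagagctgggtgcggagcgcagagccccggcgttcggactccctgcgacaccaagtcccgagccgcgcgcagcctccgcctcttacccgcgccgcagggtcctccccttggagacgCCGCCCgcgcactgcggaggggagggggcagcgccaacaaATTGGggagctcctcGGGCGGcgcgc
Col4a3 (chr9:91323740-91324039, plus strand): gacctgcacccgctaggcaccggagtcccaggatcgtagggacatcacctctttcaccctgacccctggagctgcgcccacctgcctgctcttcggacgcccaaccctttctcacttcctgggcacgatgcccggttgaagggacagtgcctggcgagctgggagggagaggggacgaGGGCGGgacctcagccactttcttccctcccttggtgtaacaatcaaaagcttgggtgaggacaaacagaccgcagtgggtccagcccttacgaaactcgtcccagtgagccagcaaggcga
In these windows Col1a2 had 1 CCAAT box and 1 TATA box, Col5a1 had 1 GC box, and Col5a3 had 1 CCAAT box and 3 GC boxes. The Col4a1 window had 2 CCAAT boxes and 2 GC boxes, and that of Col4a3 had 1 GC box. The type IV genes lie head to head: the Col4a1 window shares 176 bases with that of Col4a2 on the opposite strand, and the Col4a3 window shares 88 bases with that of Col4a4. A match of letters is a description and does not show that a factor binds there.

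The first question was which chains changed from the fed state to each phase of fasting. The chains of types I, III and V, the main basement membrane chain Col4a1 and the fibril-coating chain Col14a1 were all lower in phase 3 than in fed rats, by 2.89-fold (Col4a1) to 7.98-fold (Col5a3). Apart from these, Col12a1, Col16a1 and Col2a1 fell and Col7a1 rose, and the other 13 chains did not pass the test. In phase 2 the type V chains, Col3a1, Col4a1, Col14a1 and Col16a1 were already lower than in fed rats, and 2 chains, Col8a1 and Col11a1, were higher. Each chain was tested with limma across all 14506 genes, and a chain was called at an adjusted p below 0.05. All comparisons are drawn from the same 12 arrays, and both phases were set against the same fed rats, so they are not independent of each other.

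In phase 2 against fed rats 9 of 25 chains passed the test, 7 lower and 2 higher, where 25.2% of all genes passed (15.5% lower and 9.66% higher). In phase 3 against fed rats 12 of 25 chains passed, close to the 45.4% of all genes that did. The directions differed: 11 chains were lower and 1 was higher, where 24.3% of all genes were lower and 21.1% were higher. In phase 3 against phase 2 rats 10 chains were lower and 0 were higher, and 27.9% of all genes passed (15.1% lower and 12.8% higher). The median change over the 25 chains was 0.035 in phase 2 against fed, -0.17 in phase 3 against fed and -0.16 in phase 3 against phase 2, beside medians over all genes of 0.0072, 0.053 and 0.033. Counted by overlap alone, all phase 2 rats lay below all fed rats for 8 chains and above them for 2, where 31.0% of all genes had no overlap (18.4% lower). All phase 3 rats lay below all fed rats for 10 chains and above them for 1 (41.9% of all genes, 22.7% lower), and below all phase 2 rats for 10 (26.3% of all genes, 14.0% lower). By class, the 10 fibrillar chains had a median of -1.84 in phase 3 against fed, with 7 lower, whereas the medians of the 3 type IV chains (0.014) and the 12 other chains (-0.055) were near 0. The calls also followed signal level: all 8 chains with a mean log2 level above 8, Col4a1 and Col14a1 among them, were lower in phase 3 against fed, and of the 17 at or below 8, 3 were lower and 1 was higher. The 4 fibrillar chains at or below 8 were Col2a1, Col11a1, Col11a2 and Col27a1, of which only Col2a1 passed. The split at 8 was chosen with the values known, and the parts of class and signal level were not tested.

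The median over the tested genes differed a little between the arrays, by -0.1551 (log2) in phase 3 and by -0.065 in phase 2 relative to fed rats. All arrays were therefore also set to equal medians. After that, 10 chains were lower and 3 higher in phase 3 against fed, and 6 were lower and 4 higher in phase 2 against fed. Over all genes the higher share of the calls went to 69.6% with that rescaling, against 46.5% without it, in phase 3 against fed, and to 53.0% against 38.4% in phase 2 against fed. The fold changes below are on the authors' scale, and the centred differences are each less negative or more positive by the size of those shifts.

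**Figure D1:**
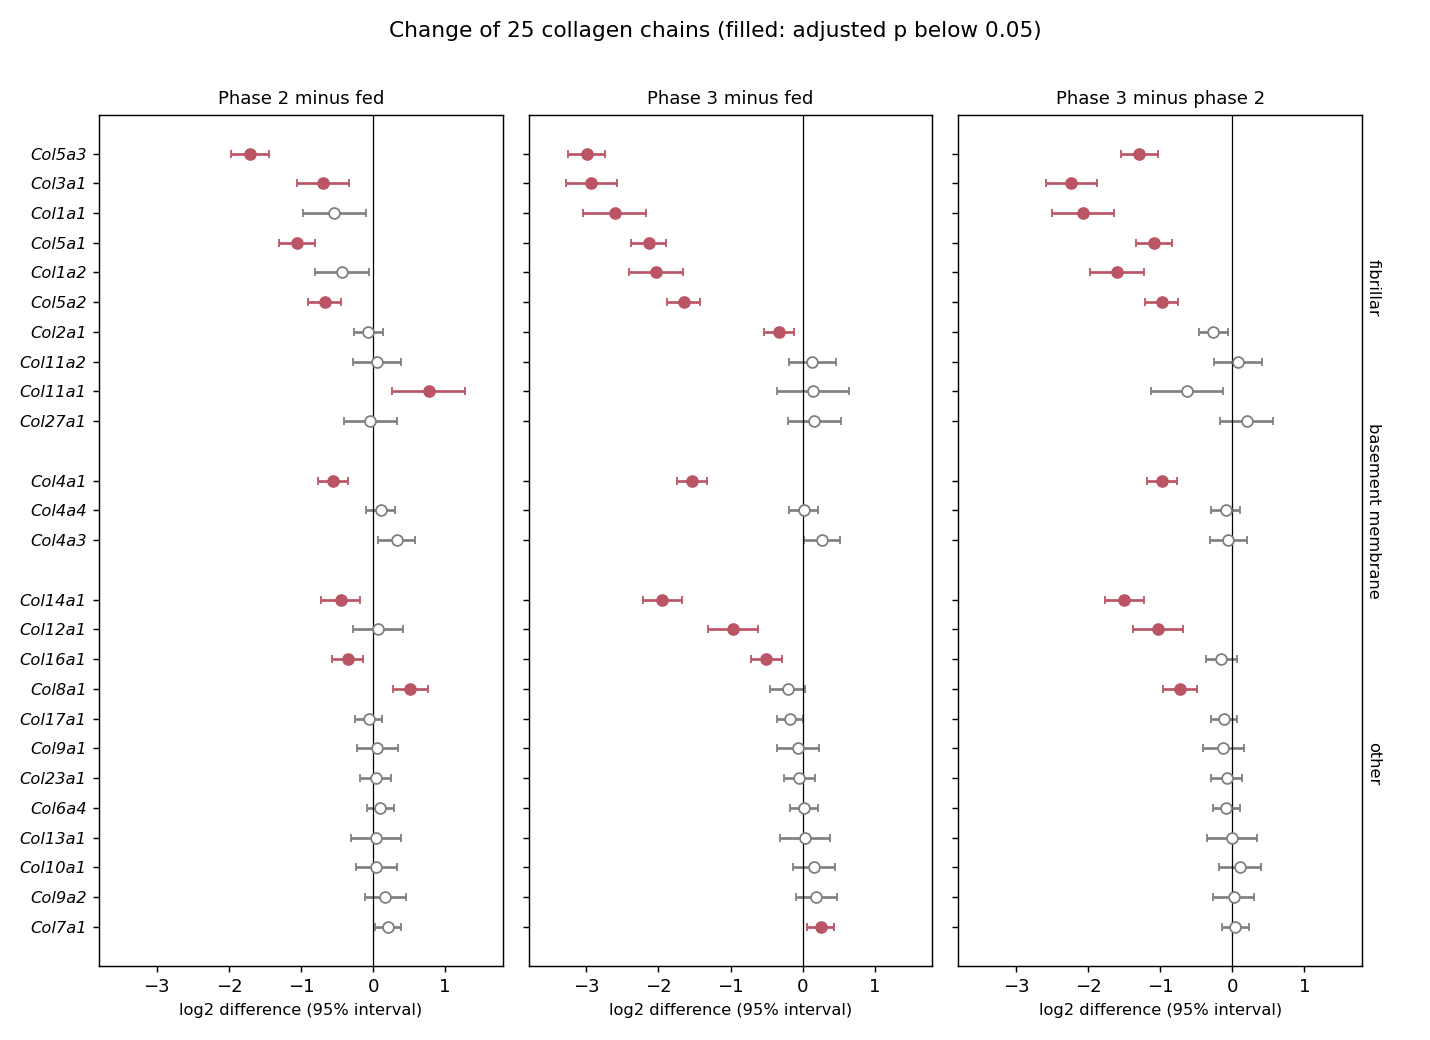
Change of the 25 chains in each comparison, as the log2 difference on the horizontal axis, with 1 row per chain and chains grouped as fibrillar, basement membrane and other. Bars are 95% intervals and filled points passed the test at an adjusted p below 0.05. The filled points at the left are led by Col5a3 and Col3a1, at -3.00 and -2.93 in phase 3 against fed, and Col11a1 and Col8a1 lie to the right of 0 in phase 2 against fed.

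Type I collagen, the bulk of most fibrils, is built from the products of Col1a1 and Col1a2. The log2 level of Col1a1 was 12.60, 12.73, 12.84 and 12.60 in the fed rats, 12.39, 11.85, 12.24 and 12.13 in the phase 2 rats, and 10.15, 10.41, 9.32 and 10.46 in the phase 3 rats. Every phase 3 rat lay below every phase 2 rat, and every phase 2 rat below every fed rat. Col1a1 fell in phase 3 against fed rats, with a log2 difference of -2.61 ± 0.202 (SE, adjusted p = 1.32e-07) or 6.1-fold lower. In phase 2 against fed rats its difference was -0.54 ± 0.202 (SE, adjusted p = 0.0685), which missed the threshold although the groups did not overlap. The spread that the fit uses includes phase 3 rat 3, the lowest of all at 9.32, and without that array the same difference of -0.54 had an adjusted p of 0.00337. From phase 2 to phase 3 the difference was -2.07 ± 0.202 (SE, adjusted p = 5.42e-06).

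Col1a2, the partner chain, had levels of 12.61, 12.83, 12.74 and 12.47 in the fed rats, 12.58, 11.82, 12.33 and 12.22 in the phase 2 rats, and 10.61, 10.92, 10.15 and 10.85 in the phase 3 rats. The phase 3 rats again stood clear of the rest, while phase 2 rat 1 reached into the range of the fed rats. Its difference in phase 3 against fed was -2.03 ± 0.174 (SE, adjusted p = 3.71e-07), 4.08-fold lower, and in phase 3 against phase 2 it was -1.60 ± 0.174 (SE, adjusted p = 1.28e-05). In phase 2 against fed it was -0.43 ± 0.174 (SE, adjusted p = 0.0933), with an adjusted p of 0.0379 when phase 3 rat 3 was left out of the fit.

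Type III collagen, made from Col3a1 alone, forms the thinner fibrils of soft tissues and mixes with type I. Col3a1 read 12.82, 12.89, 12.95 and 12.84 in the fed rats, 12.40, 11.89, 12.19 and 12.23 in the phase 2 rats, and 9.98, 10.46, 9.44 and 9.89 in the phase 3 rats. The 3 states did not overlap, and the fed rats differed little among themselves, with an SD of 0.055. Col3a1 averaged 9.94 ± 0.42 in phase 3 and 12.87 ± 0.055 in fed rats (SD, n = 4 each), a difference of -2.93 ± 0.167 (SE, adjusted p = 7.45e-09) or 7.62-fold lower. It was also lower in phase 2 than in fed rats (-0.70 ± 0.167 SE, adjusted p = 0.00672), and lower in phase 3 than in phase 2 (-2.23 ± 0.167 SE, adjusted p = 5.93e-07). Among all 14506 genes ordered from the most negative change in phase 3 against fed, Col3a1 ranked 43, Col1a1 68 and Col5a3 39.

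Type V chains were called lower in phase 2 as well as in phase 3. Col5a3, a chain of type V that is found in fat and a few other tissues, had levels of 9.81, 9.69, 9.85 and 9.82 in the fed rats, 7.90, 8.16, 8.01 and 8.26 in the phase 2 rats, and 6.63, 6.71, 7.19 and 6.66 in the phase 3 rats. The phase 2 rats lay more than 1 log2 unit below the lowest fed rat, and the phase 3 rats lay below every phase 2 rat. Its difference was -1.71 ± 0.12 (SE, adjusted p = 3.71e-07) in phase 2 against fed, 3.27-fold lower, and -3.00 ± 0.12 (SE, adjusted p = 3.71e-10) in phase 3 against fed, 7.98-fold lower. From phase 2 to phase 3 it was -1.29 ± 0.12 (SE, adjusted p = 3.54e-06).

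Col5a1, the chain common to most type V molecules, had 9.23, 9.38, 9.36 and 9.28 in the fed rats, 8.36, 8.16, 8.14 and 8.40 in the phase 2 rats, and 7.04, 7.05, 7.56 and 7.05 in the phase 3 rats. Its states did not overlap either, and phase 3 rat 3 was the highest of its group here, where it was the lowest for types I and III. Col5a1 was 2.07-fold lower in phase 2 (-1.05 ± 0.115 SE, adjusted p = 1.89e-05) and 4.4-fold lower in phase 3 (-2.14 ± 0.115 SE, adjusted p = 4.77e-09) than in fed rats. Without phase 3 rat 3 the phase 3 difference was -2.27 for Col5a1 and -3.13 for Col5a3, against -2.35 for Col1a1, -1.87 for Col1a2 and -2.76 for Col3a1.

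Col5a2, the second chain of the common type V molecule and a neighbour of Col3a1 on chromosome 9, had 10.02, 10.16, 10.07 and 9.98 in the fed rats, 9.59, 9.26, 9.37 and 9.33 in the phase 2 rats, and 8.41, 8.65, 8.14 and 8.45 in the phase 3 rats. The 3 states were again apart. The differences from fed rats were -0.67 ± 0.107 (SE, adjusted p = 0.000401) in phase 2 and -1.65 ± 0.107 (SE, adjusted p = 2.26e-08) in phase 3, the second of them 3.13-fold lower, and the difference between phase 3 and phase 2 was -0.98 ± 0.107 (SE, adjusted p = 1.28e-05).

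The other 4 fibrillar chains are best known from cartilage. Col11a1, which helps to start cartilage fibrils, had 6.69, 7.35, 6.56 and 6.69 in the fed rats, 8.11, 6.94, 7.88 and 7.46 in the phase 2 rats, and 7.04, 7.19, 6.56 and 7.08 in the phase 3 rats. Phase 2 rats were the most scattered, with an SD of 0.51, and phase 2 rat 2 lay below fed rat 2, so the groups overlapped. Its difference in phase 2 against fed was 0.77 ± 0.234 (SE, adjusted p = 0.026), 1.71-fold higher, a call that ended when any of 5 single arrays was left out (fed rats 1, 3 and 4 and phase 2 rats 1 and 3, adjusted p between 0.0668 and 0.0862). In phase 3 against fed the difference was 0.14 ± 0.234 (SE, adjusted p = 0.651).

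Col2a1, the main cartilage fibril chain, had 6.73, 7.09, 7.03 and 6.87 in the fed rats, 6.88, 6.77, 6.90 and 6.91 in the phase 2 rats, and 6.52, 6.47, 6.79 and 6.62 in the phase 3 rats. Phase 3 rat 3 lay above fed rat 1, so those groups overlapped. Col2a1 was 1.26-fold lower in phase 3 than in fed rats (-0.33 ± 0.0946 SE, adjusted p = 0.0106), but not with the arrays set to equal medians (adjusted p = 0.126). Its difference in phase 3 against phase 2 was -0.26 ± 0.0946 (SE, adjusted p = 0.052), and -0.32 (adjusted p = 0.0175) without phase 3 rat 3. None of 6 measured chondrocyte markers passed the test in any comparison, and only 1 of the 6 was above the yardstick. Col11a2 and Col27a1, which ranged over the 12 rats from 6.52 to 7.40 and from 6.17 to 7.22, did not pass in any comparison. Their 95% intervals for phase 3 minus fed were -0.20 to 0.46 and -0.20 to 0.53.

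**Figure D2:**
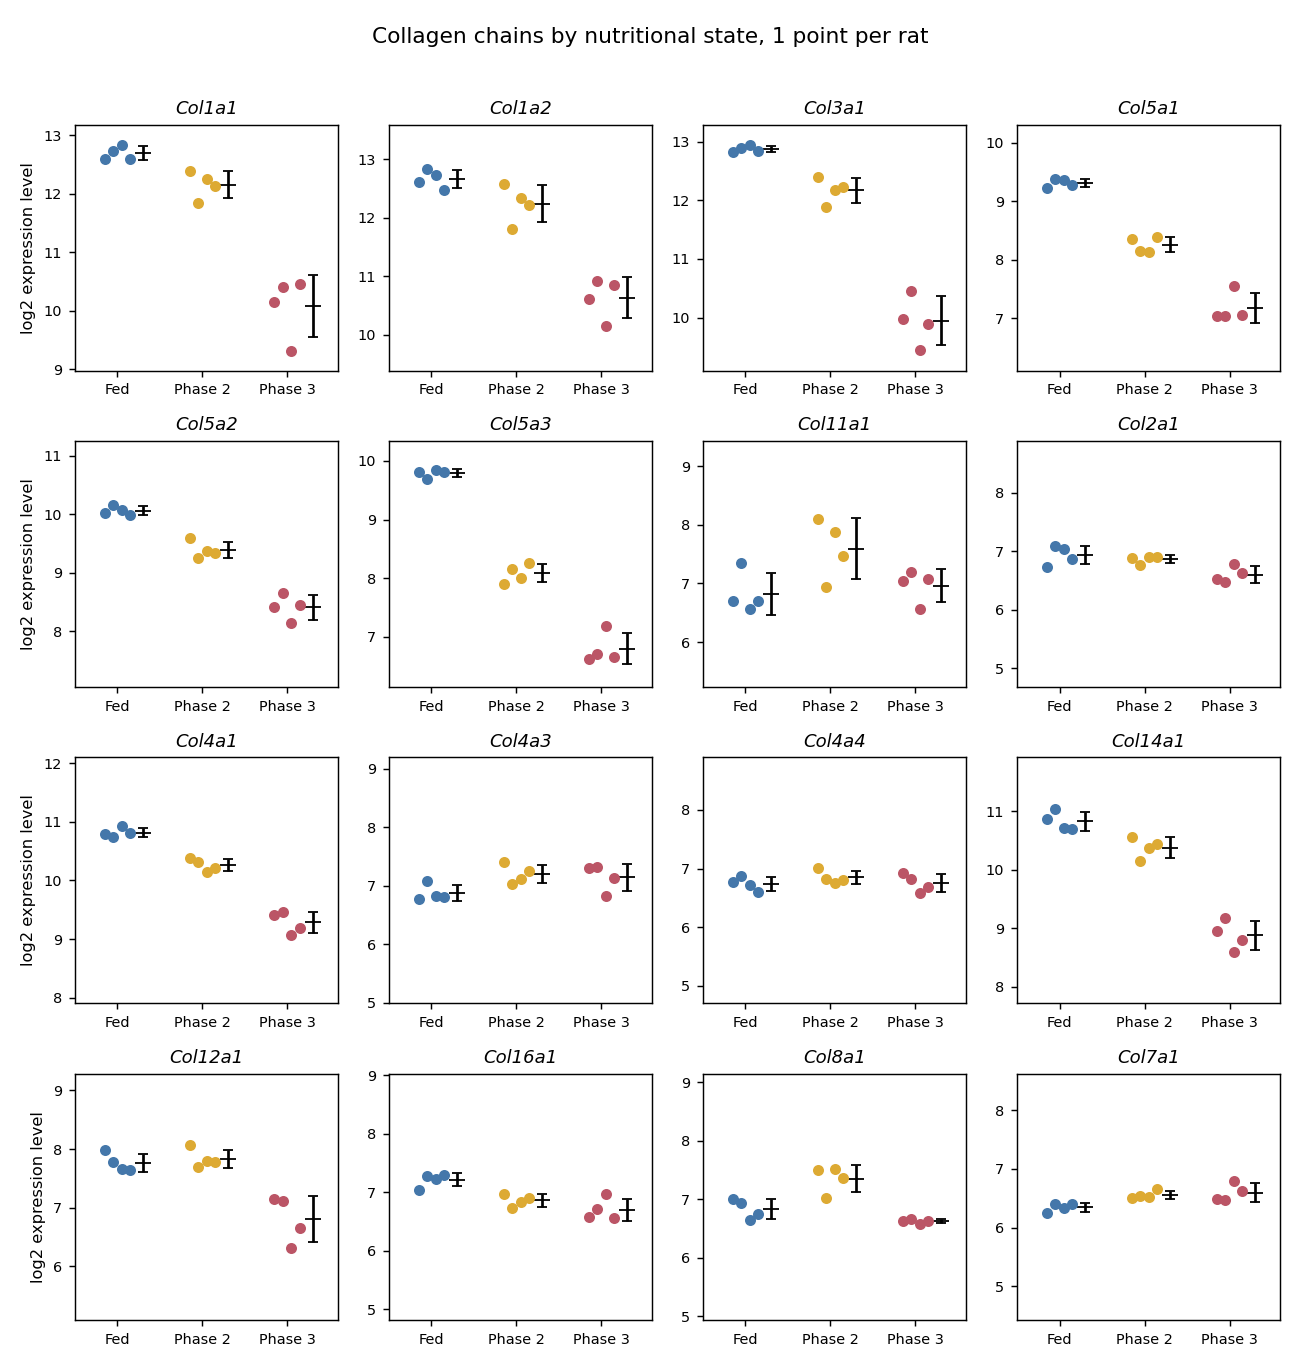
Log2 expression level of 16 chains, with 1 point per rat and, beside each group, the mean and SD of its 4 rats (fed, phase 2, phase 3 from left to right). Each panel has its own level range but the same height in log2 units. Col3a1, Col5a1, Col5a2, Col5a3 and Col4a1 step down in both phases with no overlap, Col12a1 is low in phase 3, and Col8a1 is highest in phase 2.

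Basement membrane chains diverged. Col4a1, which with Col4a2 makes the type IV network found under nearly all cell layers, had levels of 10.79, 10.74, 10.93 and 10.81 in the fed rats, 10.38, 10.32, 10.15 and 10.20 in the phase 2 rats, and 9.40, 9.47, 9.07 and 9.19 in the phase 3 rats. No state overlapped with another. Col4a1 was 1.47-fold lower in phase 2 (-0.55 ± 0.0963 SE, adjusted p = 0.00076) and 2.89-fold lower in phase 3 (-1.53 ± 0.0963 SE, adjusted p = 1.78e-08) than in fed rats, and lower in phase 3 than in phase 2 (-0.98 ± 0.0963 SE, adjusted p = 5.64e-06).

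Col4a3 and Col4a4 belong to the specialised type IV network known from the kidney filter. Col4a3 had 6.78, 7.08, 6.83 and 6.80 in the fed rats, 7.40, 7.04, 7.12 and 7.25 in the phase 2 rats, and 7.30, 7.32, 6.83 and 7.12 in the phase 3 rats. The groups overlapped, and the difference was positive in both phases: 0.33 ± 0.119 (SE, adjusted p = 0.0595) in phase 2 and 0.27 ± 0.119 (SE, adjusted p = 0.0806) in phase 3 against fed. Neither passed, and both passed without phase 3 rat 3, with adjusted p values of 0.0227 and 0.0104. Col4a4 ranged from 6.58 to 7.01 over all 12 rats, with 95% intervals of -0.096 to 0.31 in phase 2 and -0.19 to 0.22 in phase 3 against fed. So 1 of 3 type IV chains fell, and the intervals of the other pair lay above the change of Col4a1. Col4a3 and Col4a4 were also dimmer, with mean log2 levels of 7.07 and 6.78 over the 12 rats, against 10.12 for Col4a1. The part of signal level in this difference was not tested.

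Among the 12 other chains, 3 of the 5 FACIT collagens fell in phase 3 against fed. Col14a1, which coats type I fibrils and is made by fibroblasts, had 10.86, 11.04, 10.71 and 10.70 in the fed rats, 10.56, 10.14, 10.37 and 10.44 in the phase 2 rats, and 8.95, 9.17, 8.60 and 8.80 in the phase 3 rats. The 3 states did not overlap. Col14a1 was 1.36-fold lower in phase 2 (-0.45 ± 0.127 SE, adjusted p = 0.0181) and 3.85-fold lower in phase 3 (-1.95 ± 0.127 SE, adjusted p = 2.38e-08) than in fed rats. The phase 2 call ended without fed rat 2 (adjusted p = 0.058) or phase 2 rat 2 (adjusted p = 0.0642). From phase 2 to phase 3 the difference was -1.50 ± 0.127 (SE, adjusted p = 1.53e-06).

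Col12a1, a FACIT chain of tendon and other stretched tissue, had 7.98, 7.78, 7.66 and 7.65 in the fed rats, 8.06, 7.69, 7.80 and 7.77 in the phase 2 rats, and 7.14, 7.11, 6.31 and 6.65 in the phase 3 rats. Fed and phase 2 rats shared 1 range, and all phase 3 rats lay below it. Col12a1 was 1.95-fold lower in phase 3 than in fed rats (-0.96 ± 0.162 SE, adjusted p = 0.000205) and 2.04-fold lower than in phase 2 rats (-1.03 ± 0.162 SE, adjusted p = 0.000292), with 0.066 ± 0.162 (SE, adjusted p = 0.828) in phase 2 against fed. Without phase 3 rat 3, the lowest of the 12, the phase 3 difference from fed rats was -0.80.

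Col16a1, a FACIT chain of skin and cartilage matrix, had 7.05, 7.28, 7.24 and 7.29 in the fed rats, 6.98, 6.73, 6.84 and 6.90 in the phase 2 rats, and 6.58, 6.72, 6.96 and 6.56 in the phase 3 rats. All fed rats lay above the fasted rats, whose phases overlapped. It was 1.42-fold lower in phase 3 (-0.51 ± 0.1 SE, adjusted p = 0.000797) and 1.27-fold lower in phase 2 (-0.35 ± 0.1 SE, adjusted p = 0.0192) than in fed rats. The phase 2 call ended with centred arrays (adjusted p = 0.0606) and without fed rat 2, fed rat 4 or phase 2 rat 2 (adjusted p between 0.0503 and 0.0637).

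Col8a1, a short network-forming chain known from vessel walls, was the only chain with both a rise and a later fall called. Col11a1 moved the same way, but its fall from phase 2 to phase 3 did not pass. The levels of Col8a1 were 7.01, 6.94, 6.65 and 6.74 in the fed rats, 7.51, 7.02, 7.51 and 7.36 in the phase 2 rats, and 6.63, 6.66, 6.57 and 6.64 in the phase 3 rats. Every phase 2 rat lay above every fed and every phase 3 rat, and the phase 3 rats sat within 0.09 of each other. Col8a1 was 1.43-fold higher in phase 2 than in fed rats (0.52 ± 0.112 SE, adjusted p = 0.00372) and 1.65-fold lower in phase 3 than in phase 2 rats (-0.72 ± 0.112 SE, adjusted p = 0.00026), with -0.21 ± 0.112 (SE, adjusted p = 0.148) in phase 3 against fed. Markers of smooth muscle and pericytes, cells of the vessel wall, were higher in 8 of 10 and lower in 1 of 10 cases in phase 2 against fed, and those of endothelium were higher in 7 of 10, where 9.66% of all genes were higher. The mean log2 level of the smooth muscle list was 8.541 to 8.948 in fed rats, 9.182 to 10.001 in phase 2 and 9.001 to 9.565 in phase 3. In phase 3 against phase 2, 1 of its 10 markers was higher and 2 were lower, near the 27.9% of all genes called. The part of these cells in the Col8a1 values was not tested.

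Col7a1, the chain of the fibrils that anchor skin to its basement membrane, had 6.25, 6.41, 6.33 and 6.40 in the fed rats, 6.51, 6.53, 6.52 and 6.66 in the phase 2 rats, and 6.49, 6.46, 6.80 and 6.63 in the phase 3 rats. The fasted rats of both phases lay above all fed rats. Its difference was 0.25 ± 0.0862 (SE, adjusted p = 0.0303) in phase 3 against fed, 1.19-fold higher, and 0.21 ± 0.0862 (SE, adjusted p = 0.0984) in phase 2 against fed. Without phase 3 rat 3 the phase 3 call was lost (adjusted p = 0.0779) and the phase 2 difference passed (adjusted p = 0.0438).

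The other 7 chains did not pass in any comparison with all 12 arrays. Col9a1 and Col9a2 belong to a FACIT collagen that coats type II fibrils in cartilage. Col9a1 read 5.51, 5.75, 5.79 and 5.73 in the fed rats, 5.71, 5.71, 5.78 and 5.81 in the phase 2 rats, and 5.39, 5.34, 6.06 and 5.73 in the phase 3 rats. Col9a2 read 6.28, 5.97, 6.08 and 6.25 in the fed rats, 6.27, 6.27, 6.38 and 6.33 in the phase 2 rats, and 6.26, 6.01, 6.78 and 6.28 in the phase 3 rats. In both the states overlapped, and phase 3 rat 3 was the highest of the 12. Col10a1, of growth plate cartilage, had 5.53, 5.56, 5.58 and 5.72 in the fed rats, 5.46, 5.72, 5.59 and 5.80 in the phase 2 rats, and 5.48, 5.79, 6.20 and 5.55 in the phase 3 rats, again with phase 3 rat 3 at the top. Col6a4, a less common type VI chain, had 5.72, 5.75, 5.70 and 5.87 in the fed rats, 5.73, 5.90, 5.80 and 6.02 in the phase 2 rats, and 5.85, 5.60, 5.86 and 5.80 in the phase 3 rats, with all states overlapping. Col17a1 spans the membrane and ties epithelial cells to their basement membrane. It had 5.68, 5.68, 5.62 and 5.67 in the fed rats, 5.60, 5.49, 5.52 and 5.77 in the phase 2 rats, and 5.42, 5.41, 5.68 and 5.44 in the phase 3 rats, with phase 3 rat 3 within the range of the fed rats and the other phase 3 rats below it. Without that rat, Col17a1 was called lower in phase 3 than in fed rats (-0.24, adjusted p = 0.0241).

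In phase 3 against fed the 95% intervals were -0.35 to 0.22 for Col9a1, -0.094 to 0.48 for Col9a2, -0.13 to 0.45 for Col10a1, -0.17 to 0.21 for Col6a4 and -0.36 to 0.0084 for Col17a1. The other transmembrane chains, Col13a1 and Col23a1, ranged over the 12 rats from 5.13 to 6.05 and from 6.19 to 6.62, with intervals of -0.31 to 0.39 and -0.26 to 0.17. The data leave room for changes within these bounds, which reach 0.48 for Col9a2.

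The second question was when the fall took place. For the 9 chains that were lower in phase 3 than in both other states, the part of the log2 fall that was already present in phase 2 was 20.6% for Col1a1, 21.0% for Col1a2, 23.0% for Col14a1 and 23.8% for Col3a1. It was 36.1% for Col4a1, 40.6% for Col5a2, 49.2% for Col5a1 and 57.0% for Col5a3. For Col12a1 it was -6.81%, that is, none of the fall was present in phase 2. Whether the later step (phase 3 minus phase 2) differed from the first step (phase 2 minus fed) was tested in the same fit by their difference, a test chosen after these values were seen.

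The later step was called more negative for 7 of 25 chains and more positive for 0. Of all genes, 12.6% passed this test (5.71% more negative and 6.87% more positive). By sign alone, passed or not, it was more negative for 20 of 25 chains, and for 6530 of all 14506 genes. The difference between the steps was -1.53 ± 0.289 (SE, adjusted p = 0.00344) for Col3a1, -1.53 ± 0.35 (SE, adjusted p = 0.0109) for Col1a1 and -1.17 ± 0.302 (SE, adjusted p = 0.0209) for Col1a2. It was -1.05 ± 0.22 (SE, adjusted p = 0.0066) for Col14a1 and -1.09 ± 0.28 (SE, adjusted p = 0.0204) for Col12a1. For Col8a1 and Col11a1, which were higher in phase 2, it was -1.24 ± 0.195 (SE, adjusted p = 0.00105) and -1.40 ± 0.405 (SE, adjusted p = 0.0365). None of the type V chains passed, with 95% intervals of -0.46 to 0.40 for Col5a1, -0.70 to 0.087 for Col5a2 and -0.028 to 0.87 for Col5a3, and neither did Col4a1 (-0.78 to -0.067, adjusted p = 0.12). The fibrillar chains of types I and III thus had a later step larger than the first, whereas the intervals of all type V chains include 0. The difference in timing between chains was itself not tested. The count depended on phase 2 rat 1, the highest of its group in 7 of the 9 chains: without it 3 chains passed (Col3a1, Col14a1 and Col8a1), and the adjusted p was 0.0502 for Col1a1, 0.0923 for Col1a2 and 0.0863 for Col12a1. Without phase 2 rat 3 the call of Col1a2 was lost as well (adjusted p = 0.0617). The call of Col11a1 was lost in 9 alternatives, with adjusted p between 0.0519 and 0.151.

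**Figure D3:**
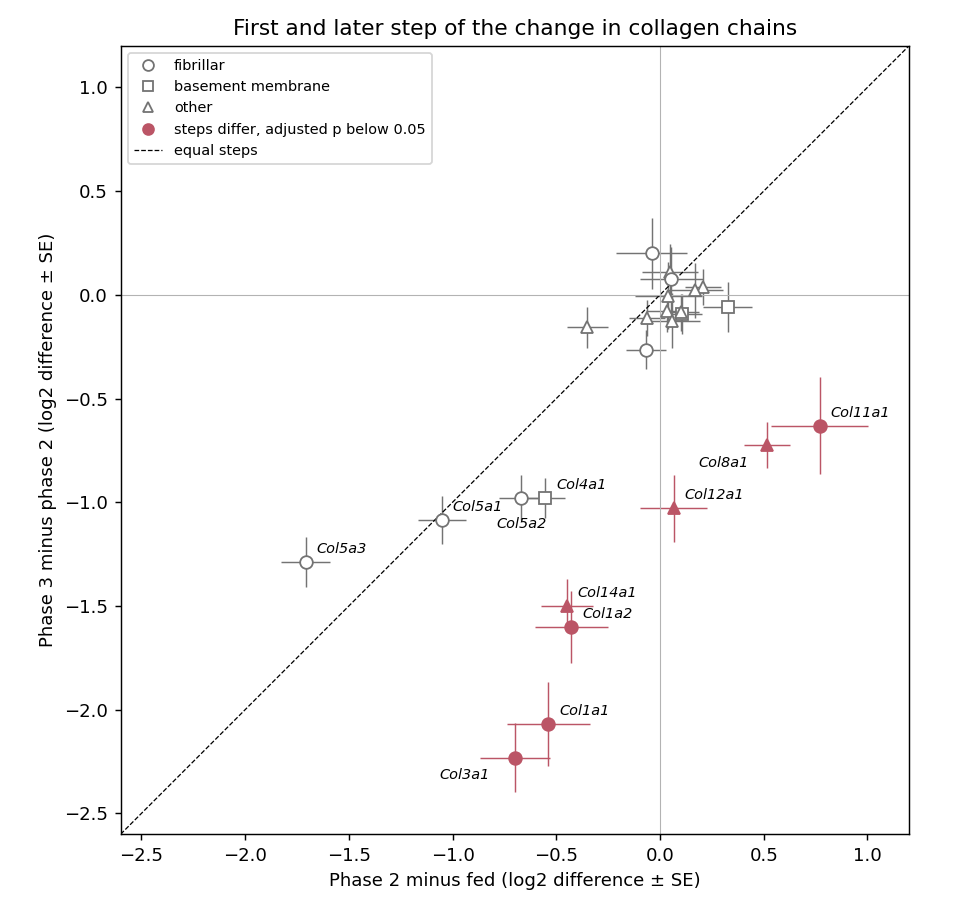
First step (phase 2 minus fed, horizontal axis) and later step (phase 3 minus phase 2, vertical axis) of the 25 chains, both as log2 differences with their SE. The dashed line marks equal steps and filled points are the 7 chains whose steps differed in the test. Col5a1 lies close to the line at -1.05 and -1.09, while Col3a1 and Col1a1 lie far below it.

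Chains that join in 1 molecule could change unequally, and this was asked of Col1a1 against Col1a2 and of Col5a1 against Col5a2. The measure was the change of their log2 difference within a rat, 6 tests in all, with an exact two-sided permutation test that cannot give a p below 0.0286 with 4 rats against 4. The difference Col1a1 minus Col1a2 was -0.55 ± 0.19 in phase 3 and 0.028 ± 0.11 in fed rats (SD, n = 4 each), a change of -0.58 (exact p = 0.0286, 0.0571 after Benjamini-Hochberg adjustment). Against phase 2 rats (-0.082 ± 0.090) the change was -0.47, with the same exact p of 0.0286. All phase 3 rats lay below all others in this difference, so Col1a1 read lower relative to Col1a2 in each of them, but the adjusted value missed 0.05.

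For Col5a1 minus Col5a2 the difference was -1.13 ± 0.14 in phase 2 and -0.75 ± 0.046 in fed rats (SD, n = 4 each), a change of -0.38 (exact p = 0.0286, 0.0571 adjusted). In phase 3 against fed the change was -0.49 (exact p = 0.143), where phase 3 rat 3 was the highest, and in phase 3 against phase 2 it was -0.11 (exact p = 0.686).

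Some rats held the same place in their group across chains. Over the 9 chains, phase 2 rat 1 was the highest of its group in 7 and phase 2 rat 2 the lowest in 6. Phase 3 rat 3 was the lowest in 7 and the highest in the other 2, Col5a1 and Col5a3, with a mean deviation of -0.25 from its group. Over the other 16 chains the same rat was the highest in 12, with a mean deviation of 0.21. This array is the one with the narrow spread of levels, and how much of its position comes from that was not tested.

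Collagen needs helpers to be made. A list of genes for folding, modification, processing and cross-linking was measured for 26 of its 29 members: 19 fell and 2 rose in phase 2 against fed, and 22 fell and 1 rose in phase 3 against fed. The median over the list was -0.51 in phase 2 and -0.82 in phase 3, beside 0.0072 and 0.053 over all genes. Of all genes, 15.5% fell and 9.66% rose in phase 2, and 24.3% fell and 21.1% rose in phase 3. Serpinh1, the chaperone that binds the collagen helix in the endoplasmic reticulum, was at -1.16 ± 0.0829 (SE, adjusted p = 4.3e-07) in phase 2 and -2.50 ± 0.0829 (SE, adjusted p = 8.68e-11) in phase 3. Loxl2, an enzyme that cross-links collagen, was at -1.59 ± 0.135 (SE, adjusted p = 2.02e-06) in phase 2 and -3.50 ± 0.135 (SE, adjusted p = 2.78e-10) in phase 3. Pcolce, which speeds the removal of the end of fibrillar procollagens, was at -0.77 ± 0.112 (SE, adjusted p = 0.000189) and -2.72 ± 0.112 (SE, adjusted p = 4.47e-10). These were named for having the smallest adjusted p of the list in phase 3 and are not typical of it.

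Of 8 proteoglycans that bind collagen fibrils, 1 was lower and 1 higher in phase 2 against fed, and 4 were lower and 2 higher in phase 3. The phase 2 count is the 25.2% background share of called genes, and 45.4% were called in phase 3. Fmod and Lum, small proteoglycans that shape fibril width, were at -1.997 (adjusted p = 5.38e-08) and -2.25 (adjusted p = 1.32e-05) in phase 3. Prelp, which links fibrils to basement membranes, was at -1.31 ± 0.0894 (SE, adjusted p = 3.64e-08). In phase 2 Fmod had already fallen (-0.69, adjusted p = 0.00231), while Lum (-0.79, adjusted p = 0.0536) and Prelp (-0.20, adjusted p = 0.118) did not pass.

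Of 9 measured collagen receptors, 3 fell and 1 rose in phase 2 against fed, and 4 fell and 1 rose in phase 3, where 25.2% and 45.4% of all genes were called. The phase 3 count is near that share. Mrc2, which takes up collagen for degradation, fell by 1.43 on the log2 scale in phase 3 (adjusted p = 2.15e-08). The collagen-binding integrins Itga2 and Itga11 were at -1.40 (adjusted p = 2.1e-07) and -0.99 (adjusted p = 3.31e-06). These genes had the smallest adjusted p of the list in phase 3 and are not typical of it. The list median was 0.13 in phase 2 and -0.13 in phase 3. The receptor that rose was Itga1 in phase 2 (0.45, adjusted p = 0.0212). In phase 3 it was Itga10 (0.31, adjusted p = 0.0261), with a mean level below the yardstick.

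The list for collagen breakdown held 9 genes, enzymes together with their inhibitors. Of these, 2 rose and 0 fell in phase 2 against fed, and 3 rose and 2 fell in phase 3. Both counts lie near the 25.2% and 45.4% of all genes called. Its median, over enzymes and inhibitors together, was -0.065 in phase 3. Mmp14, a membrane-bound collagenase, was higher in phase 2 (0.59, adjusted p = 0.000517) and in phase 3 (0.85, adjusted p = 5.48e-06). Timp3, an inhibitor of such enzymes held in the matrix, was also higher, at 0.37 (adjusted p = 0.00617) and 0.67 (adjusted p = 2.1e-05). The 2 genes that fell in phase 3 were also inhibitors, Timp1 (-0.51, adjusted p = 0.0199) and Timp2 (-0.30, adjusted p = 0.0123). Mmp8, the neutrophil collagenase, was at 0.38 in phase 3 (adjusted p = 0.00633) but below the yardstick in level. No enzyme activity and no collagen protein was measured.

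The other basement membrane genes, laminin chains among them, were measured for 9 of 15: 4 fell and 0 rose in phase 2 against fed, and 6 fell and 1 rose in phase 3, where 15.5% and 24.3% of all genes fell. Nid2, a nidogen that links laminin to type IV collagen, was at -2.31 ± 0.117 (SE, adjusted p = 2.07e-08) in phase 2 and -3.44 ± 0.117 (SE, adjusted p = 9.82e-11) in phase 3. Most of its fall was present in phase 2. Lamc1, the laminin chain shared by most laminins, was at -0.43 (adjusted p = 0.00134) and -1.18 (adjusted p = 3.67e-08). Lama3 was at -0.95 in phase 3 (adjusted p = 1.11e-05), with a mean level below the yardstick.

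TGF-beta is the best known inducer of fibrillar collagen genes. Of 11 measured genes of its pathway, 7 rose and 0 fell in phase 2 against fed, and 5 rose and 0 fell in phase 3, with medians of 0.31 and 0.12. Of all genes, 9.66% rose in phase 2 and 21.1% in phase 3, and the share of the pathway called in phase 3 is near that of all genes, 45.4%. The receptor Tgfbr1 was at 0.30 ± 0.0992 (SE, adjusted p = 0.0392) in phase 2 and 1.37 ± 0.0992 (SE, adjusted p = 6.47e-08) in phase 3. The ligand Tgfb2 was at 0.48 ± 0.158 (SE, adjusted p = 0.0394) in phase 2 and 1.52 ± 0.158 (SE, adjusted p = 2.39e-06) in phase 3. Ltbp1, which stores the inactive ligand in the matrix, was at 1.07 (adjusted p = 3.91e-05) in phase 2 and 0.75 (adjusted p = 0.000211) in phase 3. Among the fibrillar chains, 4 of 10 were lower and 1 was higher in phase 2, and 7 were lower and 0 higher in phase 3. Signalling itself was not measured.

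**Figure D4:**
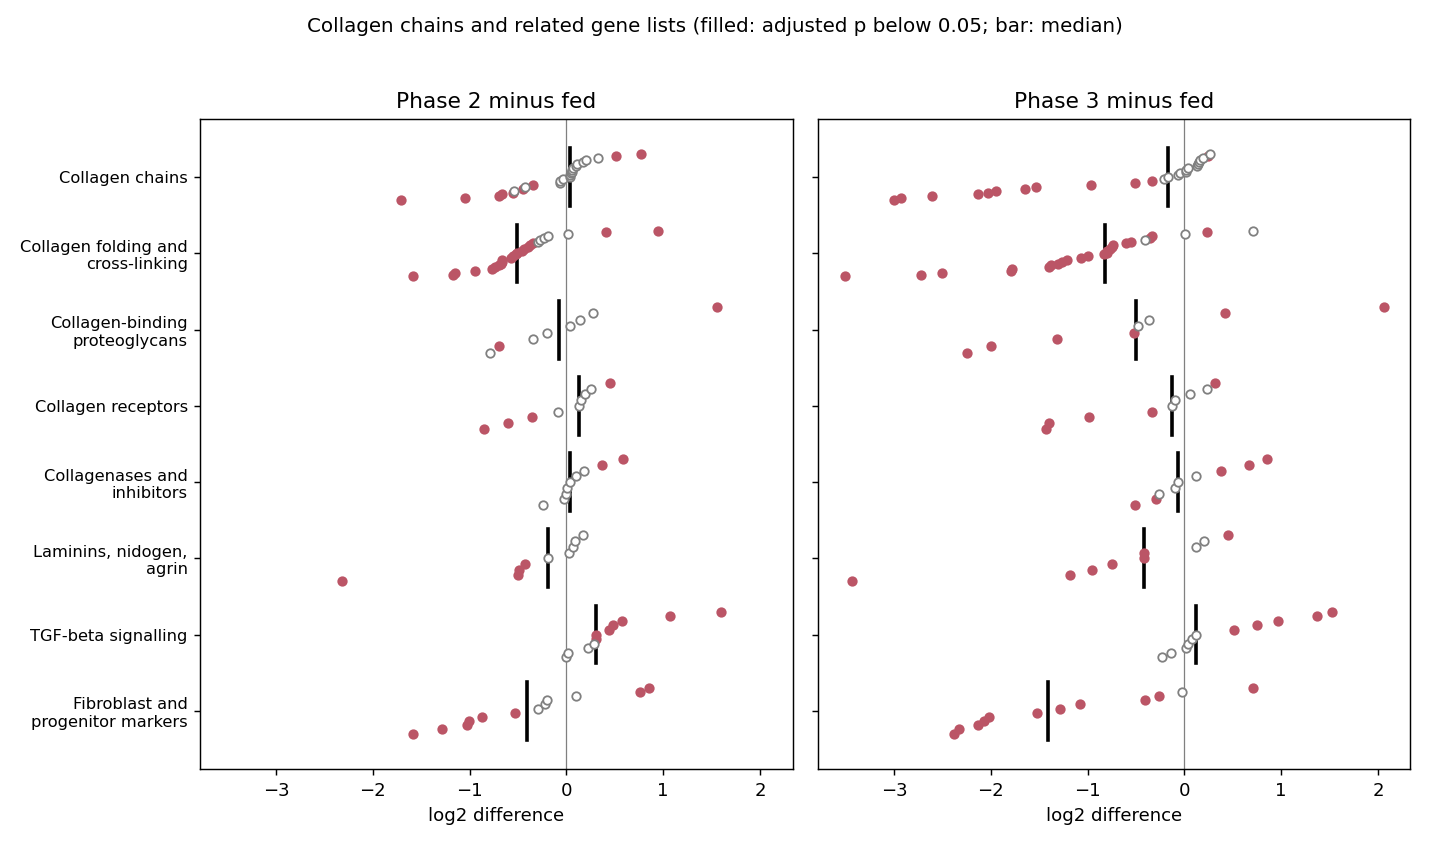
Log2 difference from fed rats in phase 2 (left) and phase 3 (right), on 1 shared scale, for the collagen chains, 6 lists of related genes and the fibroblast and progenitor markers. Each point is a gene, filled points passed the test at an adjusted p below 0.05, and the black bar is the median of the list. The folding and cross-linking list lies to the left of 0 with medians of -0.51 and -0.82, and the TGF-beta list to the right in phase 2.

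The tissue holds several cell types that could make collagen, and whole tissue was measured, so fewer cells of a type and less RNA per cell cannot be told apart. Of the markers of fibroblasts and progenitors, 6 of 12 fell and 2 rose in phase 2 against fed, and 10 fell and 1 rose in phase 3. Of all genes, 15.5% fell in phase 2 and 24.3% in phase 3. Their mean log2 level per rat was 10.007 to 10.169 in fed rats, 9.557 to 9.707 in phase 2, and 8.647 to 9.122 in phase 3, with no overlap. Adipocyte markers, of which 1 of 10 fell and 2 rose in phase 2 and 9 fell in phase 3, had means of 11.722 to 11.796 in fed rats, 11.502 to 11.661 in phase 2, and 9.733 to 10.582 in phase 3. The lower phase 2 mean rests on Lep, the leptin gene (-4.12 ± 0.308 SE, adjusted p = 6.84e-07): without it, a step added after the values were seen, the means were 11.769 to 11.831 in fed rats, 12.038 to 12.071 in phase 2, and 10.261 to 11.283 in phase 3, and the median of the whole list in phase 2 was 0.11. Mesothelial markers fell in 5 of 7 cases in both phases, against the same 15.5% and 24.3% of all genes, with means of 8.243 to 8.509 in fed rats, 7.68 to 7.968 in phase 2, and 7.075 to 7.526 in phase 3. The part of these cells in the fall of the chains was not tested. Endothelial markers, whose cells carry a type IV membrane too, rose in 7 of 10 cases in phase 2 and in 5 of 10 in phase 3 against fed, with 0 lower, while Col4a1 fell. Of all genes 9.66% rose in phase 2 and 21.1% in phase 3, and the endothelial share called in phase 3 is near the 45.4% of all genes. Their mean level was 9.244 to 9.39 in fed rats, 9.559 to 9.836 in phase 2 and 9.611 to 9.77 in phase 3.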

How the data were processed

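The log2 expression values per probe set are the authors' deposited values, made with RMA per the submitters' processing notes, which also name Affymetrix Expression Console 1.1 and GCOS. Detection calls were not used here, and with no batch label no batch was tested. The platform annotation gave 1 symbol for 15310 probe sets, several for 323 and none for 13582, and only the first kind was named. Groups came from the sample titles. A mean per state was fitted to all 12 arrays with limma 3.58.1 in R 4.3.3 (lmFit and eBayes), with Benjamini-Hochberg adjustment over 14506 genes and a threshold of 0.05. The procedure was tested on simulated data for phase 3 against fed, with 50 of 14506 genes changed at each size. It called 66% of log2 changes of 0.5, 96% of changes of 1, 94% of changes of -1 and 100% of changes of 2. In the real data far more genes changed. The number of arrays limits the precision. The members and lists were chosen with earlier results of these data known. Values of every rat are given for called fibrillar and type IV chains and for other chains with the smallest adjusted p, and up to 3 genes per list were named by their adjusted p in phase 3 against fed. The test of the later against the first step was added after the values were seen. Of 6 planned pairs of partner chains, 2 were run, since the others had a chain not analysed here. Alternatives were array centring, quantile normalisation, an intensity trend with a robust prior, fits of 2 groups alone, leaving out the dimmest 40% of genes, other probe set rules, a replicate block and leaving out each rat.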

Additional observations from a re-analysis of the deposited data

Results flagged for a closer look

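In 8 of the 75 combinations of a chain and a nutritional state, 1 of the 4 rats lay far from the other 3 (by Dixon's test of the gap to the nearest rat against the group's range), where chance gives about 1 in 20. In all of them the distant rat was the highest. In 4 of the 8 it was phase 3 rat 3: Col5a1 at 7.5614, Col5a3 at 7.1876, Col13a1 at 6.0518 and Col17a1 at 5.6759. Fed rat 2 stood out for Col11a1 (7.3549) and Col4a3 (7.0815), and phase 2 rat 4 for Col11a2 (6.9142) and Col7a1 (6.6557). Of these chains, Col5a1 and Col5a3 stayed called in phase 3 against fed rats without phase 3 rat 3, at -2.27 and -3.13, and Col17a1 passed the test without it (-0.24, adjusted p = 0.0241). Col13a1 did not pass with it or without it.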

How the results depend on the processing

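Of 75 pairs of a chain and a comparison, 60 kept their side of the threshold in every alternative run. Of these 60, 35 also kept their sign throughout, and the other 25 were differences that did not pass and changed sign in at least 1 alternative. No called pair changed sign (0 of 31), and 26 of the 31 calls held throughout. The 5 that were lost in at least 1 alternative were Col11a1, Col14a1 and Col16a1 in phase 2 and Col2a1 and Col7a1 in phase 3, all against fed, and 10 pairs gained a call in at least 1. For Col7a1, 6 alternatives ended the call, with adjusted p between 0.0581 and 0.0911. The count of chains higher in phase 2 than in fed rats was 2, and 4 with centred arrays, 4 with the 2 groups alone, 4 without phase 3 rats 2 and 3 (an alternative added after the data were seen) and 1 to 4 without single rats. The count higher in phase 3 than in fed rats was 1, and 3 with centred arrays, 2 with quantile normalisation, 0 with the 2 groups alone and 0 to 2 without single rats. With Col7a1 counted as a basement membrane chain, 2 of 4 such chains were called in phase 3 against fed, in place of 1 of 3. The count of unequal steps, 7, was 3 to 7 without single rats. Without single rats, the change of Col5a1 minus Col5a2 in phase 3 against phase 2 lay between -0.3277 and 0.0126. Where the alternatives leave out rats the fit has fewer samples, and for the others the cause was not tested.

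With the replicate number as a replicate block, 9 chains were called in phase 2 and 12 in phase 3 against fed rats, and 10 between the phases, as without it, and no chain's call changed. Same-numbered rats had deviations that correlated between -0.1547 and 0.1881, above 0.1 in 4 of 12 pairs, and 3 of 12 correlated best with their own number, so the numbers were not taken to pair the rats.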

Other observations

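A few genes in the lists of proteoglycans and cross-linking enzymes did not follow the other members of their list, and they were chosen after their values were seen. Omd, a small proteoglycan known from bone, was higher by 1.55 ± 0.285 (SE, adjusted p = 0.00114) in phase 2 and 2.06 ± 0.285 (SE, adjusted p = 3.58e-05) in phase 3 against fed rats, while Lum and Fmod of the same list were lower in phase 3. Dcn, the proteoglycan that binds type I fibrils, was at 0.42 (adjusted p = 0.00153) in phase 3. Among the cross-linking enzymes Lox was at 0.011 (adjusted p = 0.964) in phase 3 against fed, where Loxl2 fell by 3.50 on the log2 scale. Loxl4 was lower in phase 2 than in fed rats (-1.17, adjusted p = 0.000334) and higher in phase 3 than in phase 2 rats (0.76, adjusted p = 0.00589).

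Also chosen after its value was seen, Ccn2, a matrix protein induced by TGF-beta, was higher in phase 2 (1.60, adjusted p = 0.000243) and in phase 3 (0.96, adjusted p = 0.00415) than in fed rats.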
